A study of Mus musculus with 8 samples.

Results

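The amino acid response genes are 48 mouse genes that the transcription factor ATF4 is known to control or to work with when amino acids run short or protein synthesis is under stress. The members are those named on a list of such genes, which was chosen with earlier results of these data known. A probe was taken as theirs where its accession led to the listed symbol in RefSeq. Of the 48, 47 had at least 1 such probe, with Pycr1 as the exception, and 46 were tested, which required a signal well above background on each array of 1 or more groups. Fgf21 did not meet this and was not tested. The 46 genes stand among 13624 genes tested in all.

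N31 is a mouse line of neural progenitor cells (NPC) that was made from embryonic stem cells. It was made to express W20 or, in the controls, EGFP, a fluorescent marker protein, and the study asked how W20 shifts gene expression in work on bacterial proteins and the pace of reprogramming. The level of the W20 transcript itself was not analysed here. The 4 groups were EGFP NPC, W20 NPC, and EGFP and W20 cells 72 h after reprogramming was begun, with 2 single-colour Agilent arrays each. NPC were grown on gelatin in RHB basal medium with EGF and bFGF at 10 ng/ml each, and no Dox dose is recorded for the NPC groups. Cells taken at 72 h had Dox at 40 ng/ml throughout. They spent 48 h in the NPC medium, then 24 h in GMEM that held KSR (10%), LIF (1000 U/ml), ACTH (1 μM), 2-mercaptoethanol (100 μM), sodium pyruvate (1 mM) and 1× nonessential amino acids. All 4 groups share the N31 line, so they describe a single line. Nothing in the labels says that a group's arrays stand for separate cultures. The p-values therefore reflect how far these arrays differ, and that spread may be technical.

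When amino acids are scarce, when unfolded proteins collect in the endoplasmic reticulum, or when other stresses act, kinases phosphorylate the initiation factor eIF2. Most translation then slows, while the mRNA of Atf4 is translated better because of short reading frames ahead of its coding sequence. ATF4 protein pairs with C/EBP family partners and binds C/EBP-ATF response elements in genes for amino acid synthesis, amino acid uptake and tRNA charging, and in genes that feed back on the pathway. Dividing cells use the same enzymes to supply serine, glycine and folate-bound carbon for nucleotides. Arrays measure mRNA, so they do not show ATF4 protein or the phosphorylation of eIF2.

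The upstream sequences are shown because the core of the C/EBP-ATF response element can be read in them. The letters searched were TGATGNAA, where N is any base, on both strands, in RefSeq windows of GRCm38.p6 from 250 bases before to 50 bases after a transcript start. Of the 40 members with a window, 15 (37.5%) held a match, against 4.51% of all 27025 genes with a window. The stricter letters TGATGCAA, which lie within the first motif, were in 12 of the 40 members and in 1.03% of all genes. The cyclic AMP element TGACGTCA was in the window of 0 of the 40 members and of 2.03% of all genes. A match describes the letters only, and a window without one says nothing about the factor. The members were listed as genes that ATF4 is known to control or to work with, so their share is not an independent test. The 250 bases upstream of 5 members follow, 5′ to 3′ on the gene's strand and with matches in capitals: Chac1 (chr2:119350992-119351241, plus strand), Slc7a11 (chr3:50443614-50443863, minus strand), Atf3 (chr1:191183334-191183583, minus strand), Nupr1 (chr7:126625471-126625720, minus strand) and Asns (chr6:7693210-7693459, minus strand).
Chac1: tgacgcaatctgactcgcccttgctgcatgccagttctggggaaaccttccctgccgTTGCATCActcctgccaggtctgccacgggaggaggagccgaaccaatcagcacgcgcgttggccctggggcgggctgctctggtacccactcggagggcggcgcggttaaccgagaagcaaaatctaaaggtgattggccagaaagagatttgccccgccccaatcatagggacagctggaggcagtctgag
Slc7a11: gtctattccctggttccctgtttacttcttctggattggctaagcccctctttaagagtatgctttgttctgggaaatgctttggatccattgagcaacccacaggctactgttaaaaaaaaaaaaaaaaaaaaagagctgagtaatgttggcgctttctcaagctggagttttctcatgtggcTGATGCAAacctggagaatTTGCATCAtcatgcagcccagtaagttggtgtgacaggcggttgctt
Atf3: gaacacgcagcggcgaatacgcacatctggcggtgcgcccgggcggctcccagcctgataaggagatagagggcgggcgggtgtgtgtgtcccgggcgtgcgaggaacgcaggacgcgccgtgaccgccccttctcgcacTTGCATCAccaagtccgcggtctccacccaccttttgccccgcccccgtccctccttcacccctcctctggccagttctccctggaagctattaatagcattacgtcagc
Nupr1: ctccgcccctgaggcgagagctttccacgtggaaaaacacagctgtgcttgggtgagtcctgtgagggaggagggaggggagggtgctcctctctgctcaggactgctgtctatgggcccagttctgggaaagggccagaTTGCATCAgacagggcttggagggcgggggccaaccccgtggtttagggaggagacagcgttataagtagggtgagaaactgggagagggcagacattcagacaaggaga
Asns: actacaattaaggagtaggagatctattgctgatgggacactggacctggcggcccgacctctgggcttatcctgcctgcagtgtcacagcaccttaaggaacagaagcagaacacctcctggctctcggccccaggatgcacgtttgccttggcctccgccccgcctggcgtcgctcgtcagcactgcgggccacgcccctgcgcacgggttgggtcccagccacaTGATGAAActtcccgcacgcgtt
The first base of the match lay 193 bases upstream of the start in Chac1, 110 bases in both Atf3 and Nupr1, and 23 bases in Asns. Slc7a11 had a pair of matches in opposite orientation, 66 and 47 bases upstream. Matches were also found in the windows of Aars, Fgf21, Gars, Iars, Pycr1, Slc1a4, Tars, Trib3, Vldlr and Yars. Among tested genes, the 13 members with a match had a median W20 minus EGFP difference at 72 h of 0.92 log2 units (0.68 to 2.86). The 25 members with a window and no match had 0.70 (0.14 to 2.65), so the ranges overlap. In NPC these medians were 0.55 and 0.47. Whether the medians differ was not tested.

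All values below are levels, the log2 of a probe's processed signal minus the log2 of its array's 75th percentile, or differences between such levels. A level of 0 is therefore the 75th percentile of the array. Levels of different genes come from different probes and are not compared. Between 57.0% and 62.4% of an array's spots were well above background, and the 75th percentile lay between 827 and 938 intensity units, lowest on the arrays of W20 cells at 72 h. Replicate arrays correlated at 0.9990 to 0.9992 over the 12164 genes that passed the background test on each of the 8 arrays. The progenitor markers Nes, Sox2, Pax6, Vim, Msi1, Cd44, Egfr and Slc1a3 were well above background on both arrays of all 4 groups, and Olig2 on no array. Markers of other cells were partly present. Of 7 neuron markers 4 to 5 were well above background per group (Tubb3, Map2, Syn1 and Stmn2 in all groups, Snap25 on no array). Of 6 oligodendrocyte markers 3 to 5 were (Pdgfra, Cspg4 and Mbp in all groups, Mog on no array). Of 6 astrocyte markers 2 to 3 were (S100b and Aldh1l1 in all groups, Aqp4, Gjb6 and Slc1a2 on no array). Of 7 pluripotency markers with a probe 3 to 4 were well above background per group (Zfp42, Dppa5a and Utf1 in all groups, Pou5f1 and Dppa3 on no array), and of 5 immune markers only Cd3e. Of 5 endothelial markers 0 to 3 were, with Kdr, Tek and Vwf in EGFP cells at 72 h and Pecam1 and Cdh5 on no array.

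W20 cells had higher mRNA levels of nearly the whole set than EGFP cells at both stages. The set was chosen with earlier results of these data known, so its contrast with all genes is not an independent test. In NPC 44 of the 46 tested members were higher with W20 and 0 were lower, where 31.8% of all genes tested were called higher and 23.7% lower (limma, adjusted p under 0.05). At 72 h 46 of 46 were called higher, among them Adm2, which was not well above background in either group there, where 28.5% of all genes were called higher and 24.3% lower. The median difference over members was 0.50 log2 units in NPC and 0.74 at 72 h, and over all genes it was 0.04 and 0.03. Rises of at least 2-fold were called in 3 of 46 members in NPC and 14 of 46 at 72 h, larger shares than the 1.12% and 0.917% of all genes. Both W20 arrays lay above both EGFP arrays for 45 of 46 members in NPC and 46 of 46 at 72 h, where 46.0% and 43.4% of all genes did so. In bulk RNA, more RNA per cell and more cells of a kind cannot be told apart.

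Values of other measures moved with the same groups. On both slides the EGFP arrays lay at positions 1 and 2 and the W20 arrays at positions 3 and 4, so construct and position cannot be told apart. Markers of fibroblasts and mesenchyme, with 8 of 8 well above background in EGFP NPC, 7 of 8 in W20 NPC and in EGFP cells at 72 h, and 6 of 8 in W20 cells at 72 h, were called lower with W20 in 8 of 8 cases in NPC and 7 of 8 at 72 h. Their summed linear level, in multiples of the 75th percentile, was 148 and 168 in EGFP NPC, 102 and 99.1 in W20 NPC, 135 and 138 in EGFP cells at 72 h, and 89.5 and 92.3 in W20 cells at 72 h. Among all genes 31.8% were higher and 23.7% lower in NPC, and 28.5% and 24.3% at 72 h. In W20 NPC 2 of 11 tested progenitor markers were higher and 3 lower, and 1 and 3 of 4 pluripotency markers. Neuron markers had 1 and 1 of 5, oligodendrocyte 1 and 2 of 5, astrocyte and endothelial 0 and 1 of 3 each. At 72 h progenitor markers had 2 and 2, pluripotency 1 and 2, neuron 2 and 0, oligodendrocyte 2 and 1. Astrocyte and endothelial markers had 1 and 1 each. The part of marker lists in the result was not tested. With spike-in scaling 39.5% of all calls at 72 h were higher, against 53.9% in the fit reported here, while 44 of 46 members were still called higher.

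**Figure D1:**
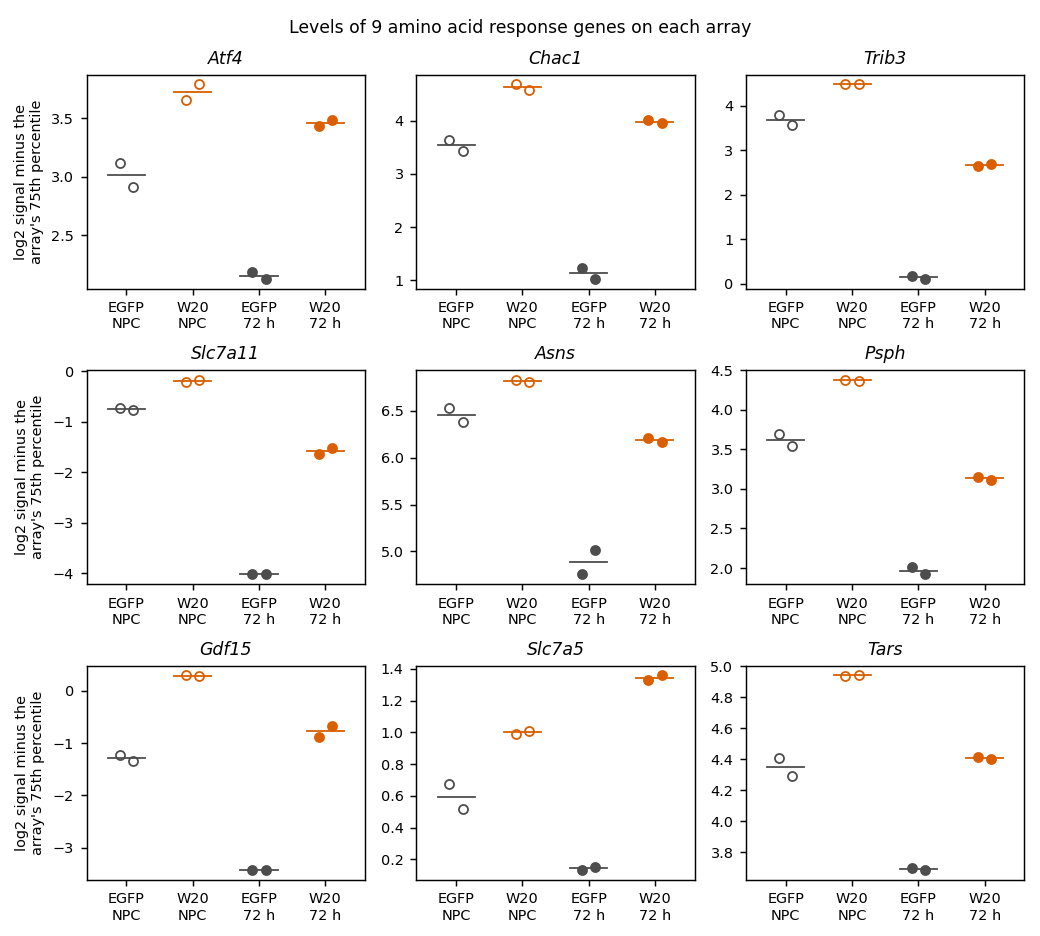
Levels (log2 signal minus the array's 75th percentile) of 9 members on the 8 arrays, with open points for NPC, filled points for 72 h, grey for EGFP, orange for W20 and a line at each group's mean. In every panel both W20 arrays sit above both EGFP arrays of the same stage, and the EGFP arrays at 72 h lie below the EGFP NPC arrays, as for Chac1 at 1.23 and 1.02.

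Among the transcription factors and regulators of the response, 7 of 8 rose in W20 NPC and 8 of 8 at 72 h. Atf4 stood at 3.12 and 2.91 on the EGFP NPC arrays, 3.66 and 3.79 with W20, 2.19 and 2.13 in EGFP cells at 72 h and 3.44 and 3.48 in W20 cells at 72 h. The arrays of W20 and EGFP cells did not overlap at either stage. Atf4 rose with W20 by 0.71 ± 0.080 (SE, n = 2 per group) log2 units in NPC (1.63-fold, adjusted p = 9.44e-04) and by 1.30 ± 0.080 at 72 h (2.46-fold, adjusted p = 1.53e-04).

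Trib3, a pseudokinase that is induced by ATF4 and holds it back, had levels of 3.79 and 3.58 in EGFP NPC, 4.48 and 4.48 in W20 NPC, 0.18 and 0.11 in EGFP cells at 72 h and 2.64 and 2.69 in W20 cells at 72 h. The EGFP arrays at 72 h were the lowest by far. It rose with W20 by 0.80 ± 0.073 in NPC (adjusted p = 4.91e-04) and by 2.52 ± 0.073 at 72 h (5.74-fold, adjusted p = 2.89e-05). Atf3, a stress-induced repressor and activator of the same family, was at -1.27 and -1.54 in EGFP NPC and -0.82 and -0.77 in W20 NPC, then at -2.76 and -2.82 in EGFP and -0.88 and -0.83 in W20 cells at 72 h. The EGFP arrays at 72 h were the lowest, and the 4 W20 arrays lay between -0.88 and -0.77. The rise with W20 was 0.61 ± 0.089 in NPC (adjusted p = 0.00231) and 1.93 ± 0.089 at 72 h (3.81-fold, adjusted p = 7.36e-05).

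Ddit3, which codes for CHOP, a partner of ATF4 in prolonged stress, stood at 1.26 and 1.15 in EGFP NPC, 1.81 and 1.65 in W20 NPC, -0.70 and -0.71 in EGFP cells at 72 h and 0.38 and 0.35 in W20 cells at 72 h. It rose by 0.53 ± 0.064 in NPC (adjusted p = 0.00125) and 1.07 ± 0.064 at 72 h (adjusted p = 1.50e-04). The Ddit3 gene overlaps the methionyl-tRNA synthetase gene Mars by 71 bases on chromosome 10. Nupr1, a small stress-induced chromatin protein, had 4.35 and 4.18 in EGFP NPC, 5.08 and 5.09 in W20 NPC, 3.39 and 3.33 in EGFP cells at 72 h and 4.40 and 4.52 in W20 cells at 72 h, and rose by 0.82 ± 0.069 and 1.10 ± 0.069 at the stages (adjusted p = 3.77e-04 and 1.61e-04). Cebpg, a C/EBP partner, rose by 0.56 in NPC and 0.35 at 72 h by its brightest probe. Its other probes had smaller differences, 0.22 (adjusted p = 0.0858) and 0.18 (adjusted p = 0.0458) in NPC and 0.13 (adjusted p = 0.283) and 0.28 (adjusted p = 0.01) at 72 h, in the limma fit over all probes. Cebpb rose by 0.26 and 0.24, and both calls of Cebpb ended with spike-in scaling (adjusted p = 0.0903 and 0.16). Atf5, a factor that is itself regulated through eIF2, did not pass in NPC, with 5.74 and 5.67 in EGFP and 5.66 and 5.62 in W20 cells (difference -0.07 ± 0.042, adjusted p = 0.233). It rose at 72 h by 0.45 ± 0.042 (adjusted p = 5.73e-04).

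Enzymes of serine synthesis and the folate pathway rose together, 6 of 6 at each stage, by 0.37 to 0.91 log2 units in NPC and 0.42 to 1.30 at 72 h. Mthfd2, a mitochondrial folate enzyme, had levels of 2.85 and 2.67 in EGFP NPC, 3.65 and 3.70 in W20 NPC, 1.86 and 1.72 in EGFP cells at 72 h and 3.09 and 3.08 in W20 cells at 72 h. The arrays of the constructs did not overlap, and the difference was 0.91 ± 0.075 in NPC (adjusted p = 3.55e-04) and 1.30 ± 0.075 at 72 h (2.46-fold, adjusted p = 1.32e-04). Psph, the phosphatase of the last step to serine, was at 3.70 and 3.55, 4.38 and 4.36, 2.01 and 1.92 and 3.15 and 3.12 in the same order of groups, and rose by 0.75 ± 0.060 (adjusted p = 3.22e-04) and 1.17 ± 0.060 (adjusted p = 9.48e-05).

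Psat1, the transaminase ahead of Psph, had 4.00 and 3.80 in EGFP NPC, 4.44 and 4.46 in W20 NPC, 3.73 and 3.63 in EGFP cells at 72 h and 4.43 and 4.41 in W20 cells at 72 h. It rose with W20 by 0.55 ± 0.071 in NPC and 0.74 ± 0.071 at 72 h (adjusted p = 0.00159 and 6.18e-04). Shmt2, which makes glycine from serine in mitochondria, stood at 4.04 and 3.92 in EGFP NPC, 4.46 and 4.45 in W20 NPC, 2.91 and 2.79 in EGFP cells at 72 h and 3.52 and 3.58 in W20 cells at 72 h. Its rise was 0.47 ± 0.059 in NPC and 0.70 ± 0.059 at 72 h (adjusted p = 0.00143 and 4.21e-04). Phgdh, the first enzyme of the serine pathway, had the smallest rise of the 6, 0.37 in NPC and 0.42 at 72 h, with Mthfd1l at 0.39 and 0.54.

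The enzymes for asparagine, proline, cysteine and alanine rose in 5 of 5 tested members at both stages, with medians of 0.36 in NPC and 0.88 at 72 h. Asns, asparagine synthetase and a classic target of ATF4, had levels of 6.53 and 6.38 in EGFP NPC and 6.83 and 6.80 in W20 NPC, which did not overlap but lay close together. At 72 h the gap was wide, with 4.75 and 5.01 in EGFP and 6.21 and 6.17 in W20 cells. The rise was 0.36 ± 0.093 in NPC (adjusted p = 0.0192) and 1.31 ± 0.093 at 72 h (2.48-fold, adjusted p = 2.39e-04). In NPC the call of Asns ended with quantile scaling (adjusted p = 0.0563) and without EGFP replicate 2 (adjusted p = 0.0963), W20 replicate 1 (adjusted p = 0.0737) or W20 replicate 2 (adjusted p = 0.0652).

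Gpt2, the mitochondrial alanine transaminase, was at 2.39 and 2.22 in EGFP NPC, 2.66 and 2.72 in W20 NPC, 0.52 and 0.52 in EGFP cells at 72 h and 1.93 and 2.00 in W20 cells at 72 h. Its rise was 0.38 ± 0.062 in NPC (adjusted p = 0.00359) and 1.45 ± 0.062 at 72 h (2.72-fold, adjusted p = 5.96e-05). Aldh18a1, the first enzyme of proline synthesis, stood at 1.66 and 1.62 in EGFP NPC, 2.08 and 2.06 in W20 NPC, 1.33 and 1.24 in EGFP cells at 72 h and 2.10 and 2.22 in W20 cells at 72 h, and rose by 0.44 ± 0.053 and 0.88 ± 0.053 (adjusted p = 0.00122 and 1.45e-04). The cysteine enzymes Cth and Cbs act in sequence but had different courses over time. Cth was at 2.65 and 2.45 in EGFP NPC, 2.82 and 2.87 in W20 NPC, -0.29 and -0.46 in EGFP cells at 72 h and 0.48 and 0.48 in W20 cells at 72 h, so its levels were lower at 72 h with either construct. Cbs was at -4.25 and -4.36, -4.08 and -3.92, -1.59 and -1.49 and -0.80 and -0.94 in the same order, so its levels were higher at 72 h.

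With W20 Cth rose by 0.30 ± 0.083 in NPC (adjusted p = 0.0248) and 0.85 ± 0.083 at 72 h (adjusted p = 6.33e-04), and Cbs by 0.30 ± 0.080 (adjusted p = 0.0208) and 0.67 ± 0.080 (adjusted p = 0.00128). In NPC both calls ended without EGFP replicate 2 (adjusted p = 0.103 for each) or W20 replicate 2 (adjusted p = 0.104 for Cth and 0.0971 for Cbs), and that of Cth also without W20 replicate 1 (adjusted p = 0.0632). The Cth call also ended with quantile scaling (adjusted p = 0.0541), spike-in scaling (adjusted p = 0.0936) or no filter on dim probes (adjusted p = 0.0513). With normexp background the Cbs call in NPC ended too (adjusted p = 0.253).

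At 72 h the largest rise of any member belonged to Chac1, which breaks down glutathione, and the fourth largest, after Gdf15 and Trib3, to Slc7a11, the transporter that takes up cystine for glutathione. Chac1 stood at 3.65 and 3.44 in EGFP NPC, 4.69 and 4.59 in W20 NPC, 1.23 and 1.02 in EGFP cells at 72 h and 4.01 and 3.96 in W20 cells at 72 h. The EGFP arrays at 72 h were apart from the other 6. Chac1 rose by 1.09 ± 0.097 in NPC (2.13-fold, adjusted p = 4.45e-04) and 2.86 ± 0.097 at 72 h (7.26-fold, adjusted p = 3.82e-05). Slc7a11 was at -0.73 and -0.77 in EGFP NPC, -0.21 and -0.17 in W20 NPC, -4.02 and -4.03 in EGFP cells at 72 h and -1.65 and -1.52 in W20 cells at 72 h. It rose by 0.56 ± 0.050 in NPC (adjusted p = 4.36e-04) and 2.44 ± 0.050 at 72 h (5.43-fold, adjusted p = 2.15e-05), and its 3 probes had differences of 2.44, 2.61 and 2.78 at 72 h. The last 2 were well above background on 1 and on 0 of the EGFP arrays at 72 h.

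**Figure D2:**
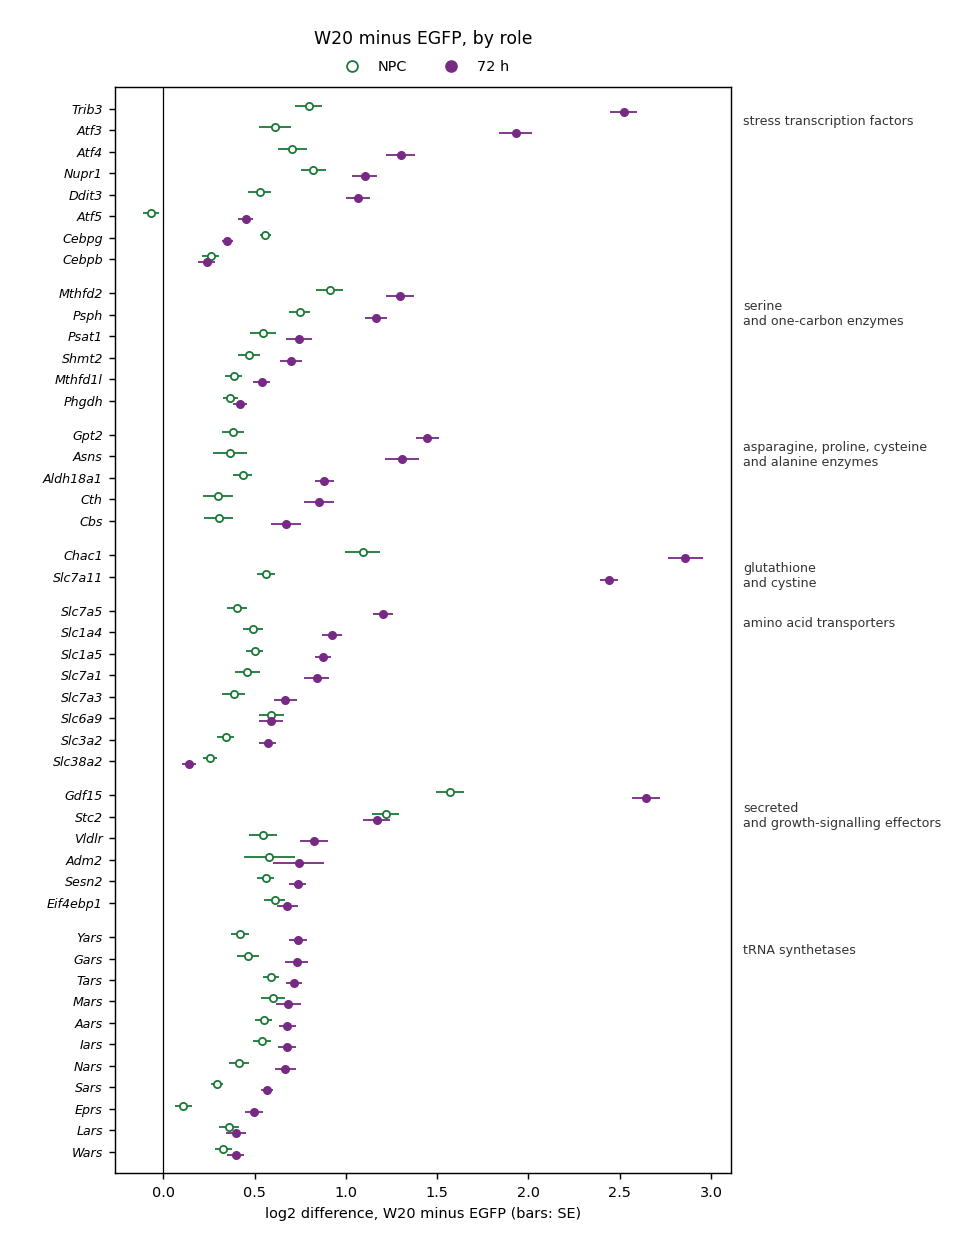
Difference W20 minus EGFP (log2, bars are SE) for the 46 tested members by role, with open green points for NPC and filled purple points for 72 h. All points but that of Atf5 in NPC (-0.07) lie to the right of 0, and Chac1, Gdf15, Trib3 and Slc7a11 lie farthest right at 72 h; Adm2 at 72 h was not well above background in either group.

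Amino acid transporters rose in 8 of 8 members at each stage, with medians of 0.43 in NPC and 0.75 at 72 h. Slc7a5, which carries leucine and other large neutral amino acids, stood at 0.67 and 0.52 in EGFP NPC, 0.99 and 1.01 in W20 NPC, 0.13 and 0.15 in EGFP cells at 72 h and 1.33 and 1.36 in W20 cells at 72 h. The W20 arrays at 72 h were the highest of the 8. The difference was 0.40 ± 0.055 in NPC (adjusted p = 0.00181) and 1.20 ± 0.055 at 72 h (2.30-fold, adjusted p = 7.17e-05). Slc3a2, the heavy chain that Slc7a5 and Slc7a11 both need at the membrane, rose by 0.34 and 0.57.

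Slc1a4, an exchanger of small neutral amino acids, was at 1.12 and 0.96 in EGFP NPC, 1.52 and 1.55 in W20 NPC, 0.93 and 0.90 in EGFP cells at 72 h and 1.84 and 1.84 in W20 cells at 72 h, a rise of 0.49 ± 0.055 and 0.92 ± 0.055 (adjusted p = 8.93e-04 and 1.44e-04). Slc1a5, the main glutamine carrier of many dividing cells, was at 1.89 and 1.77, 2.32 and 2.34, 1.47 and 1.45 and 2.34 and 2.33 in that order, a rise of 0.50 ± 0.046 and 0.87 ± 0.046 (adjusted p = 4.85e-04 and 9.98e-05). Both had W20 arrays above EGFP arrays at each stage. The cationic amino acid carrier Slc7a1 had 1.89 and 1.80 in EGFP NPC, 2.28 and 2.33 in W20 NPC, 1.77 and 1.72 in EGFP cells at 72 h and 2.49 and 2.68 in W20 cells at 72 h, and rose by 0.46 ± 0.070 and 0.84 ± 0.070 (adjusted p = 0.00271 and 3.92e-04).

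Slc7a3, a related cationic carrier, rose by 0.39 in NPC and 0.67 at 72 h, and Slc6a9, the glycine transporter, by 0.59 and 0.59. Slc38a2, which takes up small neutral amino acids, had the smallest difference at 72 h by the members' brightest probes, 0.14 ± 0.038 (adjusted p = 0.025). That call ended without EGFP replicate 1 at 72 h (adjusted p = 0.0534), EGFP replicate 2 at 72 h (adjusted p = 0.115) or W20 replicate 2 at 72 h (adjusted p = 0.0958), and with median (adjusted p = 0.0714), quantile (adjusted p = 0.255) or spike-in (adjusted p = 0.455) scaling, normexp background (adjusted p = 0.0685) or a fit of these groups alone (adjusted p = 0.0786). In NPC its call ended with spike-in scaling (adjusted p = 0.088). A second Slc38a2 probe had larger differences, 0.39 in NPC and 0.35 at 72 h.

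Secreted factors and brakes on growth rose in 6 of 6 tested members in NPC and in the 5 that were well above background at 72 h. Gdf15, a cytokine released by stressed cells, had the largest difference of any member in NPC and the next after Chac1 at 72 h. It stood at -1.22 and -1.34 in EGFP NPC, 0.30 and 0.28 in W20 NPC, -3.42 and -3.42 in EGFP cells at 72 h and -0.88 and -0.67 in W20 cells at 72 h. The rise was 1.57 ± 0.076 in NPC (2.97-fold, adjusted p = 9.33e-05) and 2.65 ± 0.076 at 72 h (6.25-fold, adjusted p = 2.89e-05). Stc2, the secreted glycoprotein stanniocalcin, differed in that its levels were not lower at 72 h. It was at -1.78 and -1.99 in EGFP NPC, -0.65 and -0.68 in W20 NPC, -1.47 and -1.56 in EGFP cells at 72 h and -0.32 and -0.36 in W20 cells at 72 h, and rose by 1.22 ± 0.073 and 1.17 ± 0.073 (adjusted p = 1.50e-04 and 1.58e-04).

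Vldlr, a lipoprotein and reelin receptor, was at 1.66 and 1.55 in EGFP NPC, 2.15 and 2.16 in W20 NPC, 0.28 and 0.16 in EGFP cells at 72 h and 0.96 and 1.14 in W20 cells at 72 h, a rise of 0.55 ± 0.076 and 0.83 ± 0.076 (adjusted p = 0.00204 and 5.45e-04). Another Vldlr probe had 0.31 in NPC (adjusted p = 0.0548). Sesn2, which restrains mTORC1 when leucine is low, rose by 0.56 and 0.74, and Eif4ebp1, the translation repressor that mTORC1 switches off, by 0.61 and 0.68. Adm2, a peptide hormone, stood at -3.07 and -3.41 in EGFP NPC and -2.59 and -2.73 in W20 NPC, a rise of 0.58 ± 0.139 (adjusted p = 0.0149). That call ended without EGFP replicate 2 (adjusted p = 0.0586) or W20 replicate 1 (adjusted p = 0.0701). At 72 h Adm2 was well above background on 0 of 4 arrays, so no fold is given although it passed the test there, and with quantile scaling it did not pass (adjusted p = 0.324).

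The tRNA synthetases, which charge tRNA with amino acids, rose in 10 of 11 in NPC and in 11 of 11 at 72 h. Their differences ran from 0.11 to 0.60 in NPC and from 0.40 to 0.74 at 72 h, so 0 of 11 were 2-fold higher. Tars, the threonyl enzyme, had levels of 4.41 and 4.29 in EGFP NPC, 4.94 and 4.94 in W20 NPC, 3.70 and 3.69 in EGFP cells at 72 h and 4.41 and 4.40 in W20 cells at 72 h. It rose by 0.59 ± 0.044 in NPC (adjusted p = 2.74e-04) and 0.71 ± 0.044 at 72 h (1.64-fold, adjusted p = 1.58e-04), and the arrays of the constructs did not overlap.

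Yars, the tyrosyl enzyme, was at 2.91 and 2.81, 3.31 and 3.25, 2.63 and 2.70 and 3.38 and 3.42 in the order EGFP NPC, W20 NPC, EGFP at 72 h and W20 at 72 h, a rise of 0.42 ± 0.048 and 0.74 ± 0.048 (adjusted p = 0.00101 and 1.84e-04). Gars, the glycyl enzyme, was at 1.70 and 1.59, 2.16 and 2.06, 1.49 and 1.44 and 2.24 and 2.15 in that order, a rise of 0.46 ± 0.061 and 0.73 ± 0.061 (adjusted p = 0.0016 and 3.96e-04). Mars, the methionyl enzyme, was at 2.04 and 1.86, 2.54 and 2.56, 1.64 and 1.62 and 2.27 and 2.37, a rise of 0.60 ± 0.066 and 0.69 ± 0.066 (adjusted p = 8.56e-04 and 6.25e-04). In all 3 both W20 arrays lay above both EGFP arrays of their stage. Aars, Iars, Nars, Sars, Lars and Wars rose at both stages by 0.29 to 0.68. Eprs, the fused glutamyl and prolyl enzyme, did not pass in NPC by its brightest probe (0.11 ± 0.047, adjusted p = 0.0963). It rose at 72 h by 0.50 ± 0.047 (adjusted p = 5.81e-04). In NPC its other probes had 0.17 (adjusted p = 0.038), 0.18 (adjusted p = 0.0334) and 0.14 (adjusted p = 0.0531) in the limma fit over all probes.

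The arrays of EGFP NPC differed from each other in 1 direction across these genes. Replicate 1 was above replicate 2 in 46 of 46 members, by a median of 0.12 and at most 0.34 log2 units, where 54.5% of all genes were higher on replicate 1. In EGFP cells at 72 h replicate 1 was above replicate 2 in 36 of 46 members (median 0.05), where 56.4% of all genes were. The W20 pairs had 21 of 46 in NPC and 17 of 46 at 72 h, where 44.4% and 62.8% of all genes were higher on replicate 1. The median W20 effect over members in NPC was 0.57 without EGFP replicate 1 and 0.42 without EGFP replicate 2, and the number called higher with any of the 8 arrays left out was 40 to 44 of 46.

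The difference of the W20 effects asks whether W20 shifted these genes more at 72 h than in NPC. It was larger at 72 h for 22 of 46 members and smaller for 1, Cebpg, where 14.1% of all genes were called larger and 16.8% smaller. The median of the difference was 0.28 over members and -0.02 over all genes. Slc7a11 led with 1.88 ± 0.070 (adjusted p = 1.67e-04), followed by Chac1 with 1.77 ± 0.137 (adjusted p = 7.20e-04), Trib3 with 1.73 ± 0.103 (adjusted p = 3.68e-04) and Atf3 with 1.32 ± 0.126 (adjusted p = 0.00131). Gdf15 (1.08), Gpt2 (1.06), Asns (0.94) and Slc7a5 (0.80) came next. By each gene's brightest probe, enzymes of serine synthesis passed in 2 of 6, tRNA synthetases in 3 of 11, and secreted and growth-signalling members in 1 of 6. Transcription factors and regulators passed in 5 of 8, and transporters in 5 of 8. These counts depend on the probe. In the limma fit over all probes, other probes of Eif4ebp1 (0.55, adjusted p = 0.00224), Vldlr (0.80, adjusted p = 0.0152) and Iars (0.28, adjusted p = 0.0435) passed. Other probes of Slc7a1 (0.18, adjusted p = 0.148), Slc1a4 (0.26, adjusted p = 0.068) and Slc3a2 (0.26, adjusted p = 0.0512) did not.

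The differences of Stc2 and Slc6a9 were -0.05 ± 0.103 (adjusted p = 0.749) and -0.0014 ± 0.095 (adjusted p = 0.994). Over the 46 members the W20 effects in NPC and at 72 h, which share no array, correlated at r = 0.67 (Spearman 0.62); the points share probes and scaling. Of the 22 larger effects, 11 kept their call in all 16 alternatives: Asns, Atf3, Atf4, Atf5, Chac1, Ddit3, Gdf15, Gpt2, Slc7a11, Slc7a5 and Trib3. With spike-in scaling 11 were called, and when 1 array was left out 17 to 25. The other probes of Cebpg had differences of -0.09 and 0.11. The call of Cebpg ended without EGFP replicate 2 (adjusted p = 0.0549), W20 replicate 1 (adjusted p = 0.0609), W20 replicate 2 (adjusted p = 0.0629), EGFP 72 h replicate 1 (adjusted p = 0.0632) or EGFP 72 h replicate 2 (adjusted p = 0.052), and with median scaling (adjusted p = 0.105), spike-in scaling (adjusted p = 0.258), normexp background (adjusted p = 0.153) or the mean of its probes (adjusted p = 0.387). Leaving out 1 array also ended the larger effects of Psph, Mthfd2, Cth, Slc3a2, Slc7a1 and Yars for 1 or more of the arrays (adjusted p from 0.0503 to 0.131). With normexp background 57.2% of all called differences were larger at 72 h, against 45.6% in the fit reported here.

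**Figure D3:**
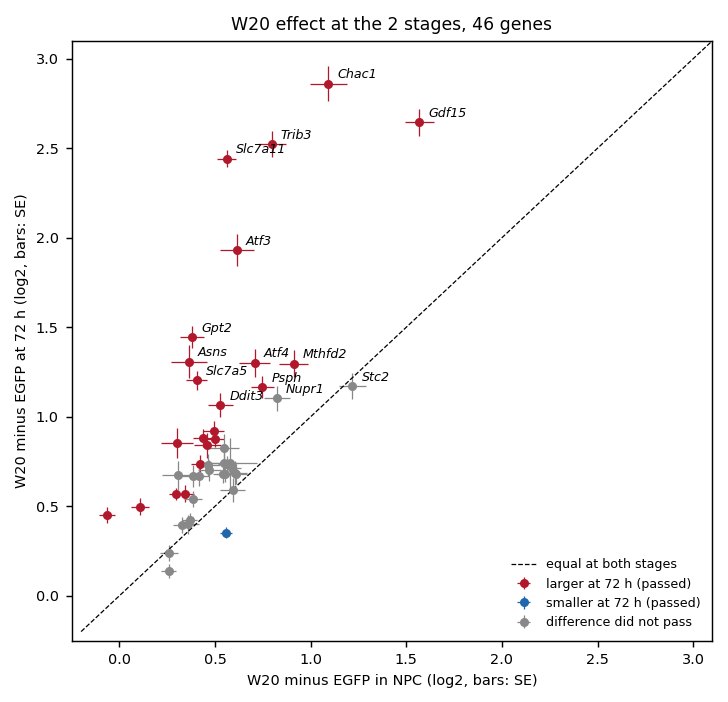
W20 minus EGFP in NPC (x axis, log2) against the same difference at 72 h (y axis, log2) for the 46 tested members, with SE bars, the line of equal effects and colours for the test of the difference. Slc7a11, Trib3, Chac1 and Atf3 stand highest above the line, Stc2 lies close to it, and Cebpg is the single member that passed below it.

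Over the 72 h the members became lower, and more so in EGFP than in W20 cells. With EGFP 42 of 46 fell and 2 rose, where 33.9% of all genes were called lower and 36.1% higher. With W20 34 fell and 5 rose, where 37.2% and 37.5% of all genes were called. Both counts of falls include Adm2, which was well above background in NPC but on no array at 72 h. It passed the background filter only through NPC, so its fall is not independent of that filter. The 34 also include Eif4ebp1, whose probes disagreed in sign. The medians over members were -0.88 with EGFP and -0.62 with W20, and over all genes 0.01 in each. Both 72 h arrays lay below both NPC arrays for 44 members with EGFP and 36 with W20, where 42.1% and 43.4% of all genes did so. Each stage was hybridised on a slide of its own, and a Dox dose is recorded at 72 h only. The stage, its medium, Dox and the slide therefore cannot be told apart. The W20 and EGFP comparisons at 1 stage were made within 1 slide. Markers of cell types moved over the same 72 h. With EGFP 3 of 11 tested progenitor markers rose and 4 fell, 3 of 3 astrocyte markers fell, 3 of 5 oligodendrocyte markers rose and 1 fell, and 2 of 3 endothelial markers rose and 1 fell. With W20 these were 4 and 4 of 11, 1 and 2 of 3, 3 and 1 of 5, and 2 and 0 of 3. Of 8 fibroblast and mesenchyme markers 1 rose and 5 fell with EGFP, and 2 rose and 4 fell with W20. Of 5 tested neuron markers 2 rose and 1 fell with EGFP, and 3 rose and 0 fell with W20. Of 4 tested pluripotency markers 1 rose and 2 fell with EGFP, and 0 rose and 2 fell with W20. The summed linear level of the progenitor list was 137 and 148 in EGFP NPC and 146 and 164 in EGFP cells at 72 h, that of the astrocyte list 2.10 and 2.06 against 0.91 and 0.84, and that of the oligodendrocyte list 2.72 and 2.77 against 5.02 and 5.74. Their part in the falls was not tested.

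With EGFP, Trib3 fell by 3.54 ± 0.073 (11.6-fold, adjusted p = 9.34e-07), Slc7a3 fell by 3.54 ± 0.063 (11.6-fold, adjusted p = 5.94e-07) and Slc7a11 fell by 3.27 ± 0.050 (9.68-fold, adjusted p = 4.11e-07). Cth, Chac1, Atf5 and Gdf15 fell by 2.92, 2.42, 2.25 and 2.14. Adm2 fell to below background and was at least 5.72-fold lower at 72 h with EGFP and at least 5.83-fold lower with W20. Against this course Cbs rose by 2.76 ± 0.080 with EGFP (6.79-fold, adjusted p = 2.54e-06) and by 3.13 ± 0.080 with W20 (adjusted p = 9.35e-07), and Stc2 rose by 0.37 and 0.32.

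In W20 cells the falls of the same genes were 1.81 for Trib3, 3.26 for Slc7a3, 1.40 for Slc7a11, 2.37 for Cth, 0.65 for Chac1, 1.74 for Atf5 and 1.06 for Gdf15, all past the threshold. Atf3 did not pass with W20 (-0.07 ± 0.089, adjusted p = 0.53), where with EGFP it fell by 1.38. The transporters split. Slc7a5, Slc1a4 and Slc7a1 rose over the 72 h with W20, by 0.35, 0.30 and 0.28, although Slc7a5 fell by 0.45 with EGFP. The difference of the W20 effects given above is also the test of whether the change over 72 h differed between constructs. At 72 h the mean level in W20 cells was above that of EGFP NPC for 21 of 46 members (median difference -0.06), and in EGFP cells for 2 of 46. These levels lie on different slides and this comparison was not tested.

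Some of the smaller changes depended on single arrays or on the scaling. With EGFP, Gars, Psat1, Slc3a2 and Yars lost their call when EGFP replicate 1 was left out (adjusted p = 0.168, 0.112, 0.113 and 0.0611), and each also lost it without 1 or more arrays at 72 h. Median scaling ended these 4 calls as well (adjusted p = 0.346, 0.222, 0.39 and 0.174), as did spike-in scaling (adjusted p = 0.141, 0.124, 0.245 and 0.132), and with median scaling the fall of Slc3a2 was 0.08 in place of 0.15. With W20, Atf4, which fell by 0.26, lost its call when W20 NPC replicate 2 was left out (adjusted p = 0.117). It also lost it without the first or the second W20 array of 72 h (adjusted p = 0.0976 and 0.0629). Mars lost it without either W20 NPC array (adjusted p = 0.0639 and 0.0743) or without the first W20 array of 72 h (adjusted p = 0.0962), and the rise of Slc7a1 lost its call without W20 replicate 1 (adjusted p = 0.0568). With median scaling Atf4 and Mars did not pass (adjusted p = 0.0746 and 0.0795), and with spike-in scaling Atf4, Mars and Slc7a1 did not (adjusted p = 0.0645, 0.0922 and 0.0745). The probes of Eif4ebp1 had opposite signs in W20 cells over the 72 h (-0.39 for the brighter and 0.18 for the other), and its fall is counted by the brighter probe. In the other comparisons 0 of the 18 members with several tested probes had called probes of both signs.

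**Figure D4:**
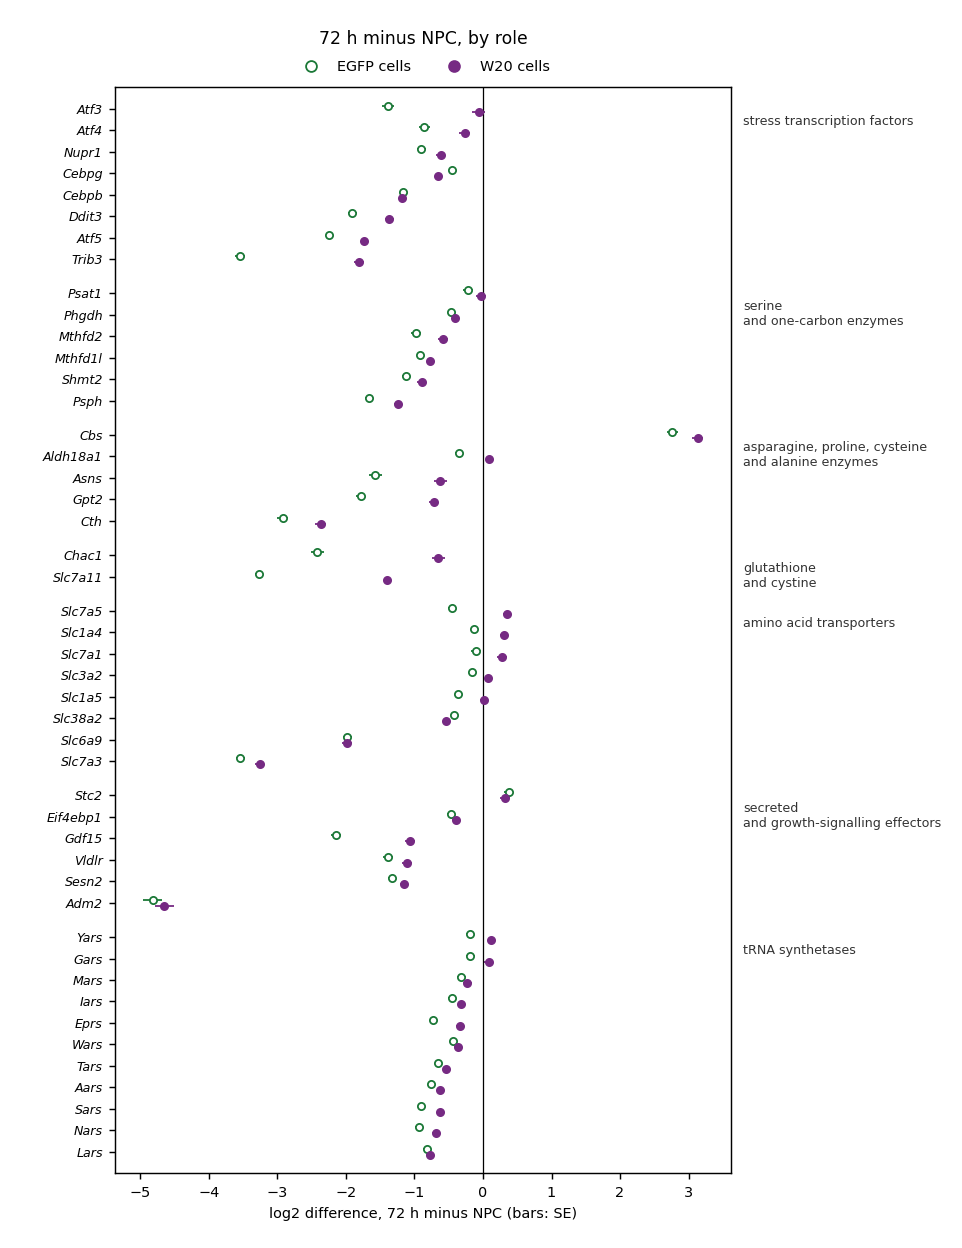
Difference 72 h minus NPC (log2, bars are SE) for the 46 tested members by role, with open green points for EGFP cells and filled purple points for W20 cells. Most points lie left of 0 and the green points farther left, as for Trib3 at -3.54 and -1.81, while both points of Cbs lie right of 0.

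Other genes of the pathway show what surrounded these changes. Of all genes tested, 31.8% were higher and 23.7% lower in W20 NPC, and 28.5% and 24.3% at 72 h. Of 17 tested genes of the eIF2 kinases, eIF2, eIF2B and their regulators, 9 (52.9%) were higher and 1 (5.88%) lower in W20 NPC. At 72 h 11 (64.7%) were higher and 3 (17.6%) lower, and the medians were 0.17 in NPC and 0.20 at 72 h. The largest at 72 h were Eif2s2, the beta subunit of eIF2, which rose by 0.61 ± 0.050 (adjusted p = 3.67e-04), and the eIF2 phosphatase subunits Ppp1r15a and Ppp1r15b, which rose by 0.55 and 0.42. Among the kinases at 72 h, Eif2ak4 (GCN2) rose by 0.30, Eif2ak3 (PERK) by 0.22 and Eif2ak1 (HRI) by 0.12, while Eif2ak2 (PKR) fell by 0.29. In NPC Eif2ak3 fell by 0.36 with W20.

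Of 17 tested genes among 18 other reported ATF4 targets, 12 (70.6%) were higher and 2 (11.8%) lower in W20 NPC (median 0.39). At 72 h 13 (76.5%) were higher and 2 (11.8%) lower (median 0.45). Vegfa, an angiogenic factor that also responds to low oxygen, rose at 72 h by 1.74 ± 0.050 (adjusted p = 2.89e-05), Herpud1, of the degradation machinery of the endoplasmic reticulum, by 1.18 ± 0.058 (adjusted p = 8.65e-05) and Bcat1, the cytosolic branched-chain transaminase, by 1.06 ± 0.067 (adjusted p = 1.63e-04). Gadd45b and Map1lc3b fell by 0.23 and 0.26. The 9 cytosolic synthetases outside the members had 7 (77.8%) higher in NPC and 8 (88.9%) at 72 h. Their medians were 0.25 and 0.24, below the members' 0.42 and 0.68. The cysteinyl enzyme Cars, on both of these lists, had the largest difference among them at 72 h and rose by 0.97 ± 0.045 at 72 h. Mitochondrial synthetases had 10 (58.8%) higher and 0 lower of 17 in NPC, and 7 (41.2%) higher and 2 (11.8%) lower at 72 h (medians 0.20 and 0.08).

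Genes of the folding response of the endoplasmic reticulum, which ATF6 and XBP1 drive beside the ATF4 arm, were called in both directions, in NPC in shares near those of all genes. Of 17 tested, 5 (29.4%) were higher and 4 (23.5%) lower in W20 NPC, where 31.8% and 23.7% of all genes were. At 72 h 2 (11.8%) were higher and 5 (29.4%) lower, where 28.5% and 24.3% of all genes were, with medians of 0.05 and -0.06, against 0.04 and 0.03 over all genes. Hspa5, the chaperone BiP, fell with W20 by 0.20 ± 0.052 in NPC (adjusted p = 0.0199) and 0.22 ± 0.052 at 72 h (adjusted p = 0.0165). Calr, another chaperone, had 0.05 ± 0.040 in NPC (adjusted p = 0.361) and fell by 0.19 at 72 h, and the kinase and nuclease Ern1, which splices Xbp1, rose by 0.21. Over the 72 h with EGFP, 12 (70.6%) of these 17 genes rose and 2 (11.8%) fell, where 36.1% of all genes were called higher and 33.9% lower. Of the 46 tested amino acid response genes, 42 fell.

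**Figure D5:**
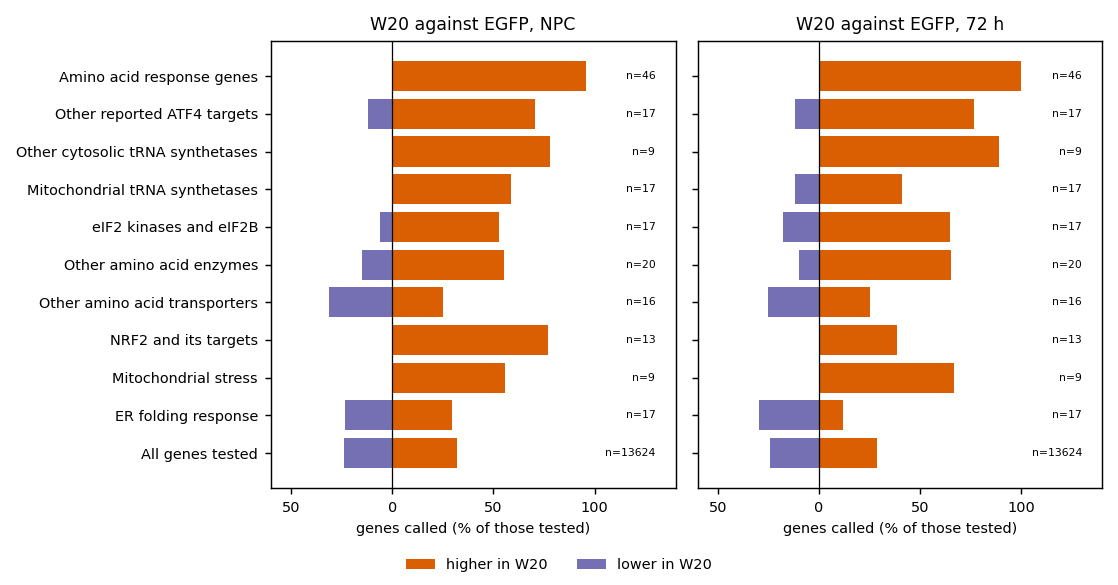
Share of the tested genes of each list that was called higher (orange, to the right) or lower (violet, to the left) in W20 than EGFP cells, in NPC and at 72 h, in percent, with the number tested at the right. The amino acid response genes reach 46 of 46 at 72 h, while 5 of 17 folding genes of the endoplasmic reticulum (ER) were higher in NPC and 2 of 17 at 72 h.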

How the data were processed

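The members and gene lists were chosen with earlier results of these data known. Total RNA of 8 samples was labelled with Cy3 and hybridised to Agilent 4x44K whole mouse genome arrays, per the labels' protocols. The deposited scanner files hold spot intensity on a linear scale from Agilent Feature Extraction 10.7.3.1, and the processed signal used here is background-subtracted, per the file headers. The deposited value table holds log2 values whose centring is not stated. Its NPC columns equalled their arrays within 0.01 for 99.988% to 100% of probes after a shift of 9.66 to 9.71, which puts its 0 near the 75th percentile. Its column medians ran from -3.91 to -3.73. Its 72 h columns did not match their own arrays (4.13% to 14.1% of probes), so it was an alternative in NPC only.

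Outlier spots (95 to 137 per array) were left out, spots of a probe averaged, and each array's 75th percentile over non-control spots subtracted. Accessions matched RefSeq symbols (GRCm38.p6) for 27584 of 41174 probes. The brightest probe of a gene was used, and a gene was kept if 1 or more groups had both arrays well above background. A model of the 4 group means was fitted with limma 3.58.1 in R 4.3.3 (4 residual and 1.75 prior degrees of freedom). P-values are two-sided and Benjamini-Hochberg adjusted over all 13624 genes with a threshold of 0.05. "At least" folds compare the brighter group's mean with a bound for the dimmer one. The bound averages, over its arrays, either the probe's own signal or the dimmest signal called well above background, whichever was greater. The pipeline was tested on simulated data. Each role group is given in full for Atf4 and up to 4 members with the largest called W20 difference at either stage; other lists name up to 3 genes, and further ones were chosen after their values were seen. Alternatives were median, quantile and spike-in scaling, normexp (offset 50, on the median signals, since no mean signal was used here), no or a stricter filter, the mean of probes, pairs of groups alone, a replicate block, the value table, and each array left out. The number of arrays limits the precision.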

Additional observations from a re-analysis of the deposited data

Results flagged for a closer look

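For 23 members the effect of W20 differed between the stages by the test of the difference itself (limma, adjusted p under 0.05). On the log2 scale, as 72 h minus NPC, the regulators had 1.73 for Trib3, 1.32 for Atf3, 0.59 for Atf4, 0.54 for Ddit3, 0.52 for Atf5 and -0.21 for Cebpg. The enzymes had 1.06 for Gpt2, 0.94 for Asns, 0.55 for Cth, 0.45 for Aldh18a1, 0.42 for Psph and 0.38 for Mthfd2. Chac1 and Slc7a11 had 1.77 and 1.88, and Gdf15 had 1.08. Among the transporters it was 0.80 for Slc7a5, 0.43 for Slc1a4, 0.38 for Slc7a1, 0.37 for Slc1a5 and 0.23 for Slc3a2. Among the tRNA synthetases it was 0.39 for Eprs, 0.32 for Yars and 0.27 for Sars. Groups of 2 arrays are too small for a test of outlying samples.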

How the results depend on the processing

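In NPC 38 of the 44 members higher with W20 kept their call in all 18 alternatives, and 40 to 45 were called in each. At 72 h 43 of 46 kept it in all 17, and 44 to 46 were called. With quantile scaling 1 member, Atf5, was lower in W20 NPC. With spike-in scaling the genes called were 4698 in NPC, 4153 at 72 h and 1906 for the difference of the W20 effects, against 7564, 7192 and 4208, and with median scaling the last was 2684. For that difference 11 members were larger at 72 h with spike-in scaling, and 0 were smaller with median scaling, spike-in scaling, normexp background or the mean of probes; with 1 array left out 17 to 25 were larger and 0 to 1 smaller. With 1 array left out the genes called were 5674 to 7569 in NPC, 5557 to 6846 at 72 h and 2917 to 3439 for the difference; members called over the 72 h were 2 higher and 38 to 43 lower with EGFP, and 4 to 6 higher and 32 to 34 lower with W20. Same-numbered replicates did not deviate together (correlations from -0.09 to 0.11), so the numbers are not taken as a pairing. With the replicate number as a block, 44 members were higher in NPC, 46 at 72 h, and 7537, 7131 and 4008 genes were called in NPC, at 72 h and for the difference. Under that block 21 members had a larger effect at 72 h, and Slc3a2 (adjusted p = 0.0602) and Slc7a1 (adjusted p = 0.0566) lost that call. Slide and position could not be fitted apart from stage and construct, and these alternatives were not run. No member with a call changed direction in any alternative. Dim probes such as that of Adm2 at 72 h are limited by background.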

Other observations

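Genes of amino acid use outside the members were called in both directions, with more of the enzymes higher than lower in W20 cells. Of all genes tested, 31.8% were higher and 23.7% lower in W20 NPC, and 28.5% and 24.3% at 72 h. Of 20 tested enzymes of amino acid breakdown and other synthesis, 11 (55%) were higher and 3 (15%) lower in W20 NPC. At 72 h 13 (65%) were higher and 2 (10%) lower. The largest difference there was that of Bcat1, a rise of 1.06. Bcat1 and Mthfd1 are also on the list of other reported ATF4 targets. Prodh, which breaks down proline, rose at 72 h by 0.79 ± 0.062 (adjusted p = 3.36e-04) and had -0.01 ± 0.062 in NPC (adjusted p = 0.915). Gpt, the cytosolic counterpart of the alanine transaminase Gpt2, fell at 72 h by 0.48 ± 0.034 (adjusted p = 2.39e-04), and Bckdha, of branched-chain breakdown, fell by 0.56 ± 0.042 (adjusted p = 2.93e-04). Of 16 tested other amino acid transporters, 4 (25%) were higher and 5 (31.25%) lower in NPC, and 4 (25%) higher and 4 (25%) lower at 72 h. These shares are near those of all genes. Slc38a4, of the same family as Slc38a2, fell with W20 by 1.23 ± 0.051 in NPC and 1.35 ± 0.051 at 72 h (adjusted p = 7.40e-05 and 4.62e-05). The glutamate transporter Slc1a3, also a progenitor marker, fell by 1.21 and 1.28.

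The antioxidant factor NRF2 shares Slc7a11 as a target. Of 13 tested genes of that pathway, 10 (76.9%) were higher and 0 lower in W20 NPC, and 5 (38.5%) higher and 0 lower at 72 h. Of all genes tested, 31.8% were called higher in NPC and 28.5% at 72 h. Hmox1, heme oxygenase, rose by 0.53 in NPC and 0.84 at 72 h. Srxn1, sulfiredoxin, rose by 0.66 ± 0.054 in NPC (adjusted p = 3.60e-04) and had -0.02 ± 0.054 at 72 h (adjusted p = 0.783), and Nqo1 did not pass at either stage (adjusted p = 0.145 and 0.0572). Of 9 mitochondrial stress genes, 5 (55.6%) were higher and 0 lower in NPC. At 72 h 6 (66.7%) were higher and 0 lower, led by the chaperonin Hspd1 at 0.44 ± 0.042.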
